A study of Mus musculus with 12 samples.

Results

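The comparison described here is the effect of inducing the fusion protein RUNX1-EVI1 for 18 hours on the genes of sorted mouse hematopoietic progenitors (HP). It rests on 4 of the 12 libraries of the study, 2 with doxycycline (PlusDox HP) and 2 without (NoDox HP), chosen by their labels. All cells came from A2lox.cre mouse embryonic stem cells that carry RUNX1-EVI1 under doxycycline control, so the NoDox cells carry the construct too. Embryoid bodies were grown for 3.25 days, FLK1+ cells were taken from them and cultured for 1 day with VEGF at 5 ng/ml and IL-6 at 10 ng/ml, and the culture went on for 18 hours with 0 or 0.5 µg/ml doxycycline before sorting. The other 8 libraries are 2 hemogenic endothelium populations, HE1 and HE2, treated in the same way. The labels call the 2 libraries of a group biological replicates and say no more of them. Colonies of the targeted stem cells were picked after neomycin selection, and how many clones were used is not given in the sources used here. Neither the sort gates nor the species of the fusion cDNA is given there. A line without the construct but with doxycycline was not analysed here, so that effects of the drug and of the fusion cannot be told apart.

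RUNX1 is the DNA-binding part of core binding factor and is needed for endothelial cells to become blood cells. EVI1, encoded by Mecom, is a zinc finger transcription factor of blood stem cells and of endothelium that is switched off as blood cells mature. The leukaemia fusion joins the DNA-binding domain of RUNX1 to almost all of EVI1. Hematopoietic progenitors in such cultures have left the endothelial state and give rise to early red cells, megakaryocytes and myeloid cells.

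Markers of the labelled cell type were present in all 4 HP libraries. Summed FPKM (fragments mapped to a gene, scaled by its transcript length and the size of the library) of 8 haematopoietic markers ran from 396 to 451 in NoDox HP and from 361 to 524 in PlusDox HP. The same sum was 13.6 to 62.4 in the HE1 libraries. HE2 lay nearer to HP, at 195 to 294 without and 166 to 276 with doxycycline. The sum of 8 erythroid markers, led by the embryonic globins, was 9798 to 11507 without and 6155 to 9409 with doxycycline. The 8 endothelial markers summed to 135 to 159 and to 213 to 304, against 700 to 1799 over all HE libraries. Cldn5 and Emcn were the lowest 2 of these 8 markers and stayed below 1 FPKM in every HP library. The other endothelial markers lay above 1 FPKM in all 4. Among them, Pecam1 read 67.6 and 52.1 FPKM without and 90.8 and 77.1 with doxycycline, and Esam 4.54 and 6.21 against 14.9 and 11.8.

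The summed FPKM of the 4 HP libraries ran from 534848 to 565649, with 11461 to 11979 names at 1 FPKM or more and 14295 to 18798 names listed at 0. No read counts were used, so the absolute depth is unknown. Low FPKM values gave depths relative to the median library of 0.643 to 2.43, of which 2 were unsettled over 5 ways of reading them, PlusDox HP replicate 1 (1.20 to 2.43) and NoDox HP replicate 2 (0.707 to 1.28). Both replicate 2 libraries of HP held 16980 and 19620 FPKM of Lars2 and both replicate 1 libraries 224 and 37.5, so this difference between libraries was balanced over doxycycline. Folds below are on the log2(FPKM + 1) scale with their standard error, which understates changes of genes near 0. The p-values come from limma, adjusted by the Benjamini-Hochberg method over 13316 genes, and calls needed an adjusted p under 0.05. They measure the spread between 2 replicates, pooled over the 6 groups. In such bulk samples, fewer cells of a type and less RNA per cell cannot be told apart.

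The first question was how the genes behind the construct read out in HP. Mecom (mm10 chromosome 3, 29951296 to 30509759, protein coding) stood at 0.194 and 0.205 FPKM in the NoDox libraries and at 5.18 and 5.51 in the PlusDox libraries. The PlusDox values lay far apart from the NoDox values and close to each other. The fold was 2.40 ± 0.32 (limma adjusted p = 0.0058) and 4.18 with a pseudocount of 0.1. Reads of the construct cannot be told apart from reads of mouse Mecom or Runx1 in these values. The Mecom fold was 2.40, 2.41 and 2.36 without NoDox HP replicate 1, replicate 2 and PlusDox HP replicate 2, with limma adjusted p of 0.0614, 0.0576 and 0.0561, and 2.44 (0.0373) without PlusDox HP replicate 1. Runx1 (mm10 chromosome 16, 92601466 to 92826074, protein coding) read 67.4 and 56.0 FPKM without and 62.0 and 15.2 with doxycycline. PlusDox HP replicate 2 was the low library and the groups overlapped (fold −0.97 ± 0.57, limma adjusted p = 0.72), with a fold of 0.01 once that library was left out. Hprt (mm10 chromosome X, 52988078 to 53021660, protein coding) encodes a purine salvage enzyme, and its locus is where A2lox.cre cells take up an inducible cassette. It rose from 7.04 and 4.72 to 82.4 and 49.5 FPKM, the largest fold of the named genes at a pseudocount of 1 (3.26 ± 0.36, limma adjusted p = 0.00305) but not at 0.1, where it was 3.45.

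The promoter of Mecom is shown because Mecom had the largest rise among the transcription factor genes listed. The 250 bases before its outermost RefSeq start (GRCm38.p6, chr3:30509760-30510009, minus strand) hold ACAAGAT, the core of the site bound by the first zinc finger domain of EVI1, in capitals with its first base 51 bases before the start.
Mecom: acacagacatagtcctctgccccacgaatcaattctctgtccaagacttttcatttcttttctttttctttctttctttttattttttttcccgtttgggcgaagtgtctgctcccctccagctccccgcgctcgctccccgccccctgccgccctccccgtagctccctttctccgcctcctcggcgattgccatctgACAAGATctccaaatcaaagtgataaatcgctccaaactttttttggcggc
The window before another RefSeq start of Mecom (chr3:30013205-30013454) held no such match. These letters occurred on either strand in 1.69% of the 12334 RefSeq promoters of tested genes. A match is a description and not a binding site. Where AA follows, these letters overlap AGATAA, the core of GATA factor sites, which was counted as well.

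With doxycycline, 111 of 13316 genes were called in HP (0.834%), 80 higher (0.601%) and 31 lower (0.233%). All 111 had libraries that did not overlap between the groups, which calling by p-value with 2 libraries a group favours. The same sign within replicate 1 and within replicate 2 follows from that and is no further support. Among these calls, 78 of the 80 rises and 29 of the 31 falls were at least 2-fold, with median folds of 1.48 and −1.20. The threshold selects for large folds, so these sizes do not describe the effect over all genes. Of the rises, 32 started from a mean below 1 FPKM and 5 were listed at 0 in both NoDox libraries. Over all tested genes, both PlusDox libraries lay above both NoDox libraries for 20.5% and below them for 13.2%, and 1250 genes (9.39%) had an unadjusted p below 0.05. Leaving out NoDox HP replicate 1 or replicate 2 gave 10 or 25 calls, and leaving out PlusDox HP replicate 1 or replicate 2 gave 49 or 18. The count was 16 in a fit of the HP libraries alone, 169 with median scaling and 175 with a term for libraries high in Lars2. The next counts are for the 4 fits that left out 1 HP library. Of 51 called genes that met the naming rule, 5, 11, 20 and 12 stayed called in these 4 fits in the same order. Hprt, Acer2, Rhag, Ltb and Naaa passed in all 4, and 28 genes passed in none. With a pseudocount of 0.1, 84 of 92 called genes were higher, against 80 of 111.

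**Figure D1:**
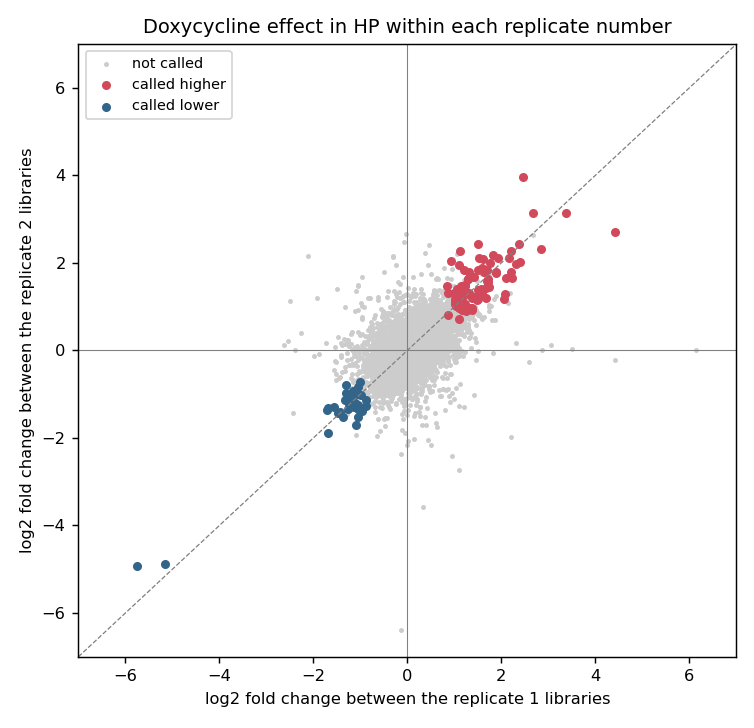
Each point is 1 of 13316 genes, with the log2 fold of PlusDox over NoDox between the replicate 1 libraries on the x axis and between the replicate 2 libraries on the y axis, both on the log2(FPKM + 1) scale. The 80 genes called higher lie in the upper right and the 31 called lower in the lower left, with Gm5601 and Mir8114 at the far lower left.

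Endothelial genes were the group with the highest median fold. Of 47 tested members 6 rose and 0 fell (beside 0.601% and 0.233% of all genes), at a median of 0.72 over the list, where the median of all genes was −0.0028. The shares of 0.601% higher and 0.233% lower are the background for called members of every list below. All lists were written with earlier results of these data known. Their counts, shares and medians are therefore a description and not a test of the lists. Both PlusDox libraries lay above both NoDox libraries for 36 of the 47 (76.6%, beside 20.5% of all genes). The 6 were Cdh5, Thsd1, Ramp2, Ptprb, Egfl7 and Sox18. Medians within replicate 1 and within replicate 2 were 0.80 and 0.56.

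Cdh5, the cadherin that holds endothelial cells together (mm10 chromosome 8, 104101613 to 104144504, protein coding), read 10.8 and 9.88 FPKM without and 53.2 and 36.4 with doxycycline. Both PlusDox values were well above both NoDox values (1.99 ± 0.26, limma adjusted p = 0.0058). The fold was 2.05 without NoDox HP replicate 1 and 1.93 without NoDox HP replicate 2, with limma adjusted p of 0.0614 and 0.0672. Egfl7, a secreted protein of endothelium (mm10 chromosome 2, 26581083 to 26592682, protein coding), went from 26.9 and 27.9 to 90.7 and 85.1 FPKM. The 2 libraries of each group were nearly level (1.64 ± 0.22, limma adjusted p = 0.00679). Thsd1, a membrane protein of endothelium, rose from 3.34 and 2.56 to 15.6 and 14.5 FPKM (2.03 ± 0.28, limma adjusted p = 0.00757). Ramp2, the partner that makes the calcitonin-like receptor respond to adrenomedullin, rose from 5.00 and 4.28 to 17.8 and 17.7 (1.74 ± 0.22, 0.00504). Ptprb is the endothelial phosphatase VE-PTP and Sox18 an endothelial transcription factor of the SoxF family. Ptprb rose by 1.67 ± 0.23 to 4.25 and 3.33 FPKM, and Sox18 by 1.32 ± 0.21 to 10.0 and 7.41 FPKM.

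The promoter of Egfl7 is shown as that of the most abundant endothelial gene called. AGGAAG, the core of ETS factor sites, is in capitals on either strand in the 250 bases before its outermost RefSeq start (GRCm38.p6, chr2:26580833-26581082, plus strand).
Egfl7: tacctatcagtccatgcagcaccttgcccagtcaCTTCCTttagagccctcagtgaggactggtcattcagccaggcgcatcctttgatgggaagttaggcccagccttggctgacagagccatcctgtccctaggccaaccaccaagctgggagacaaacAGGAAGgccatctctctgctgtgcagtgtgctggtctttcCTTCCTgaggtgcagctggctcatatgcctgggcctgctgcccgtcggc
It holds 3 such matches, with first bases 216, 89 and 49 bases before the start. The windows before the other RefSeq starts of Egfl7 (chr2:26583615-26583864 and chr2:26586386-26586635) held 1 and 0. AGGAAG occurred in 40.8% of the 76 promoters of 61 called higher genes with an entry and in 28.3% of the promoters of all tested genes. TGTGGT, the core of RUNX sites, occurred in 10.5% and 10.9%. GGGCGG, the GC box, went the other way, at 39.5% and 57.1%. The part of base composition in the AGGAAG shares was not tested. Identical windows of Sprr2a1 and Sprr2a2 and overlapping windows of Rnase6, all with AGGAAG, were counted separately. These shares carry no test.

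The most abundant uncalled members of the list were higher in both PlusDox libraries. Cd34, a sialomucin of progenitors and vessels, read 130 and 148 FPKM without and 234 and 179 with doxycycline (0.56 ± 0.32, limma adjusted p = 0.708). Pecam1, an endothelial adhesion molecule, read 67.6 and 52.1 against 90.8 and 77.1 FPKM (0.49 ± 0.24, 0.599). Kdr encodes the VEGF receptor FLK1 and Tie1 an orphan receptor kinase of vessels. Their values were 30.2 and 28.6 against 53.4 and 33.2 FPKM for Kdr and 37.4 and 31.2 against 74.2 and 43.2 FPKM for Tie1. For both genes PlusDox replicate 1 was the high library. Of the 8 endothelial markers 7 were higher in both PlusDox libraries (beside 20.5% of all genes). Emcn read 0 and 0.459 against 0.130 and 0, and Cldn5 0.369 and 0.364 against 0.848 and 0.847 FPKM. In HE1 and HE2 the same 2 genes ran from 4.35 to 31.7 and from 11.9 to 86.3 FPKM. The part that endothelial cells in the gate might have in these rises was not tested. No member of the Notch and arterial list was called by limma (0 of 23, median 0.23, 5 with an unadjusted p below 0.05, beside 9.39% of all genes).

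Of 31 genes associated with blood stem cells, 4 rose and 0 fell (beside 0.601% and 0.233% of all genes), with a median of 0.56. Mecom was 1 of the 4 and the others were Procr, Ly6a and Fgd5. Both PlusDox libraries were higher for 22 of the 31 (71.0%, beside 20.5% of all genes). Procr, the endothelial protein C receptor of stem cells and vessels (mm10 chromosome 2, 155751125 to 155755478, protein coding), rose from 3.32 and 2.59 to 12.4 and 11.4 FPKM (1.71 ± 0.24, limma adjusted p = 0.00764). Ly6a, which encodes the stem cell antigen SCA-1, rose from 1.20 and 1.31 to 6.34 and 5.35 FPKM (1.6 ± 0.27, 0.018). Fgd5, an exchange factor of stem cells and endothelium, rose from 3.70 and 3.0 to 12.3 and 8.10 FPKM (1.35 ± 0.25, 0.0326). Procr averaged 31.3 FPKM without and 47.7 with doxycycline in HE1, and 30.8 and 135 in HE2. Procr, Ly6a and Fgd5 fell short of the threshold whichever HP library was left out, with limma adjusted p of up to 0.0819, 0.166 and 0.233 over these 4 fits. Kit, the stem cell factor receptor, read 48.2 and 38.5 FPKM without and 53.9 and 30.9 with doxycycline, and the groups overlapped.

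**Figure D2:**
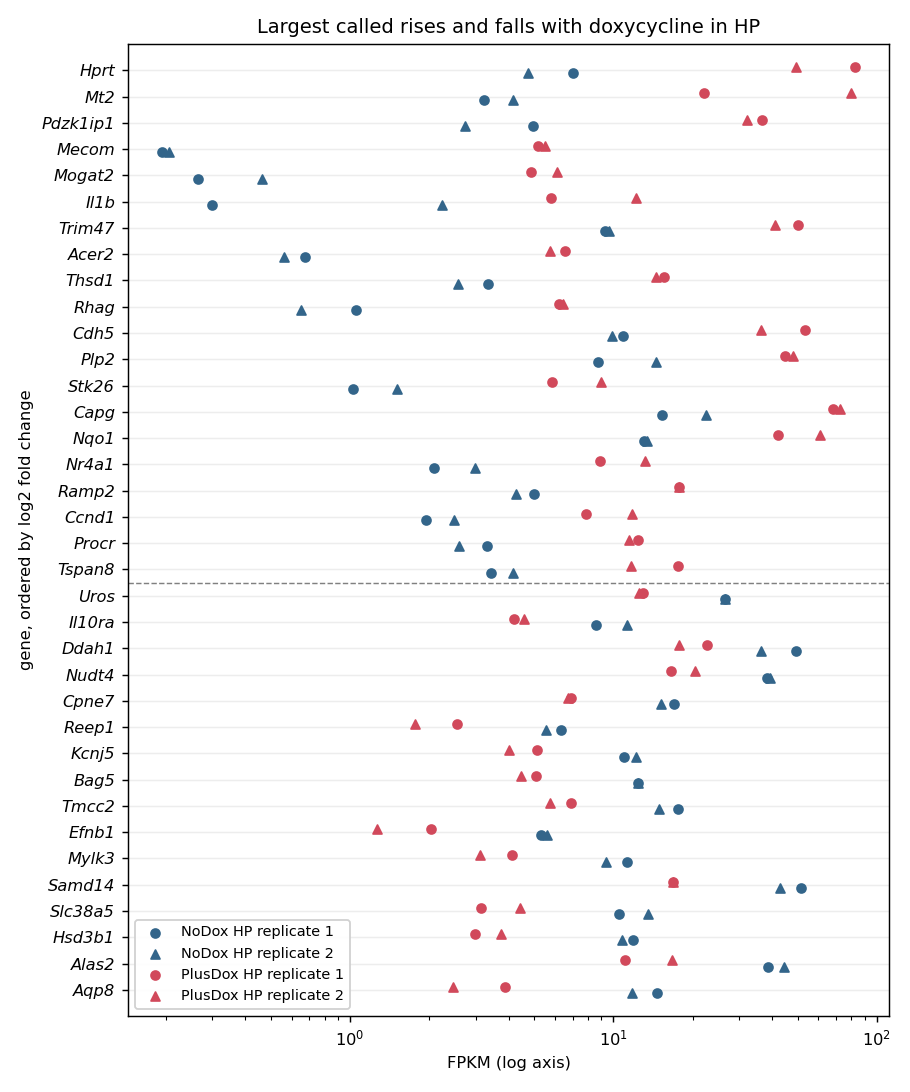
FPKM on a log axis for the 20 largest rises (above the dashed line) and the 16 falls that met the rule for named genes, with blue for NoDox HP, red for PlusDox HP, circles for replicate 1 and triangles for replicate 2. In every row the 2 red points lie on one side of the 2 blue points, as the rule required, and Mt2 and Il1b spread most within a group.

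Red cell genes changed in both directions. In the haem and iron list 2 of 27 members fell and 0 rose, beside 0.233% and 0.601% of all genes. Of the 27, 11 were lower in both PlusDox libraries (40.7%, beside 13.2% of all genes), and the list median was −0.16. Alas2, the first enzyme of haem synthesis in red cells (mm10 chromosome X, 150547417 to 150570622, protein coding), fell from 38.5 and 44.5 to 11 and 16.7 FPKM. Both NoDox values were above both PlusDox values (−1.54 ± 0.22, limma adjusted p = 0.00932). The fold was −1.64, −1.44 and −1.26 without NoDox HP replicate 1, NoDox HP replicate 2 and PlusDox HP replicate 1, with limma adjusted p of 0.0614, 0.0917 and 0.0689. Uros, uroporphyrinogen III synthase, a later step of the same pathway (mm10 chromosome 7, 133686142 to 133710467, protein coding), fell from 26.6 and 26.5 to 13 and 12.5 FPKM (−1.01 ± 0.20, limma adjusted p = 0.0452). Its libraries were almost level within each group, and it passed in none of the 4 fits that leave out an HP library.

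Of 41 genes of globins and the red cell, 4 fell and 1 rose, beside 0.233% and 0.601% of all genes. The list median was 0.0026 and turned negative with median scaling (−0.0145). Samd14, a protein that binds the actin cap and acts in KIT signalling of red cell precursors (mm10 chromosome 11, 95009395 to 95026087, protein coding), fell from 51.6 and 42.9 to 16.9 FPKM in both PlusDox libraries (−1.43 ± 0.26, limma adjusted p = 0.0321). Aqp8, a water and peroxide channel, fell from 14.7 and 11.8 to 3.86 and 2.46 FPKM (−1.79 ± 0.37, 0.0488). Slc38a5, a glutamine and serine transporter, fell from 10.5 and 13.6 to 3.13 and 4.42 FPKM (−1.45 ± 0.23, 0.0133). Tmcc2, a transmembrane protein, fell from 17.6 and 14.8 to 6.88 and 5.72 FPKM (−1.24 ± 0.22, 0.0259). None of these 4 calls held in a fit without 1 HP library. Rhag, the Rh-associated glycoprotein of the red cell membrane (mm10 chromosome 17, 40811099 to 40844094, protein coding), went the other way, from 1.05 and 0.654 to 6.23 and 6.44 FPKM. Its groups lay far apart (1.99 ± 0.18, limma adjusted p = 0.00149), and the call held in all 20 alternatives.

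The globins were the most abundant genes of this list, and none of them passed. Hbb-bh1, an embryonic beta-like globin, read 7459 and 8221 FPKM without and 4388 and 6023 with doxycycline (−0.61 ± 0.28, limma adjusted p = 0.549), with both PlusDox libraries lower. Hba-x, the embryonic zeta globin, read 2097 and 3067 against 1618 and 3177, and Hbb-y, another embryonic beta-like globin, 720 and 1327 against 856 and 1955. In both genes the groups overlapped, and the replicate 2 library was the higher one in each group. Globin genes have close copies, so reads may be split between them. Gata1, the main transcription factor of red cells and megakaryocytes, read 90.2 and 74.9 FPKM against 53.9 and 56.9 (−0.56 ± 0.46, 0.888). Slc4a1, the band 3 anion exchanger of the red cell membrane and named after its values were seen, read 5.62 and 12.8 against 15.0 and 47.8 FPKM. Of the 8 erythroid markers 5 were lower and 1 was higher in both PlusDox libraries, beside 13.2% and 20.5% of all genes.

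The promoters of Alas2 (GRCm38.p6, chrX:150547167-150547416, plus strand) and Hsd3b1 (chr3:98859795-98860044, minus strand) are shown because both genes fell and both windows hold AGATAA, the core of GATA factor sites, on the opposite strand. Matches are in capitals, which include 1 AGGAAG in Alas2 and 1 ACAAGAT on the opposite strand in Hsd3b1.
Alas2: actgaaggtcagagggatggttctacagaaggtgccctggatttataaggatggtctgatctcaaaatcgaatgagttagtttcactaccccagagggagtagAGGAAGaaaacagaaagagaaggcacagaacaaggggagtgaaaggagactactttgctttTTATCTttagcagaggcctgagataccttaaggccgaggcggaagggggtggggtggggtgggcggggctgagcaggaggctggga
Hsd3b1: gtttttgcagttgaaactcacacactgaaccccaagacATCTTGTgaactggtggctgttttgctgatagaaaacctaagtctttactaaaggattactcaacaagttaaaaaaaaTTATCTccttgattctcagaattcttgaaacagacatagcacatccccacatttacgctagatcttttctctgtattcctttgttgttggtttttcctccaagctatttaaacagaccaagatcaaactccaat
The AGATAA matches begin 86 bases before the start in Alas2 and 134 in Hsd3b1. These 2 were picked for holding the letters. Of the other haem and red cell genes called lower with an entry, Tmcc2 held AGATAA before 1 RefSeq start. The windows of Uros, Slc38a5 and Aqp8 held none. These letters occurred in 6 of 25 promoters of 20 genes called lower (24%), in 9.21% of those of genes called higher and in 5.99% of those of all tested genes. The shares carry no test and a promoter without these letters may hold other sites.

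Hsd3b1, a steroid dehydrogenase, was the 1 of 27 members of the cholesterol list that fell, from 11.9 and 10.8 to 2.99 and 3.75 FPKM (−1.50 ± 0.25, limma adjusted p = 0.0203).

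Mecom and Id3 were the 2 of 40 blood transcription factors that rose, and 0 fell (median 0.16). Id3, an inhibitor of basic helix-loop-helix factors and a target of BMP signals, rose from 5.16 and 4.42 to 13.5 and 12.2 FPKM (1.26 ± 0.21, limma adjusted p = 0.0167). Tal1, a helix-loop-helix factor needed for blood formation, read 118 and 90.2 FPKM without and 100.5 and 84.1 with doxycycline, and Zfpm1, the GATA1 partner FOG1, 121 and 93.7 against 98.5 and 86.4. Both genes overlapped between the groups. Spi1, the myeloid factor PU.1, read 48.2 and 53.3 against 91.0 and 72.5 FPKM (0.67 ± 0.27, limma adjusted p = 0.432), and Lmo2, a bridging protein, 80.9 and 74.2 against 134 and 98.0 (0.56 ± 0.24, 0.479). For these 2 genes both PlusDox libraries were the higher ones. Of 26 genes linked to EVI1 in other systems, Mecom itself was the 1 that was called (median 0.29).

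Selp and Pdzk1ip1 were the 2 of 34 megakaryocyte and platelet genes that rose, beside 0.601% of all genes. Selp, the adhesion molecule P-selectin of platelets and endothelium, rose from 1.73 and 2.22 to 7.18 and 6.85 FPKM (1.43 ± 0.24, limma adjusted p = 0.0171). Pdzk1ip1, a small membrane protein whose gene neighbours Tal1, rose from 4.94 and 2.74 to 36.8 and 32.1 FPKM (2.91 ± 0.58, 0.0438). Itga2b, or CD41, the integrin that marks early blood cells and platelets, overlapped at 192 and 157 against 235 and 160 FPKM. None of 34 myeloid genes was called by limma (median 0.21, with 10 at an unadjusted p below 0.05, beside 9.39% of all genes). Tyrobp, an adaptor of myeloid receptors, read 39.3 and 53.5 against 72.5 and 82.3 FPKM, higher in both PlusDox libraries. Mpo, the granule enzyme of neutrophil precursors and named after its values were seen, read 25.0 and 26.3 against 15.1 and 11.3, lower in both. Of 35 pan-haematopoietic genes 2 rose, Spn and Dock2. Spn, the leukocyte sialoglycoprotein CD43, went from 2.47 and 3.72 to 7.95 and 8.25 FPKM (1.17 ± 0.21, limma adjusted p = 0.0315). Dock2, an activator of RAC in leukocytes, rose by 1.03 ± 0.21 (0.046) to 2.84 and 1.95 FPKM. Summed myeloid markers were 137 to 167 FPKM without and 207 to 219 with doxycycline, and macrophage markers 8.88 to 9.53 and 16.5 to 17.3, with C1qa, C1qb and C1qc between 0 and 1.44 FPKM in all 4. Their part in the rises of Spn and Dock2 was not tested.

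**Figure D3:**
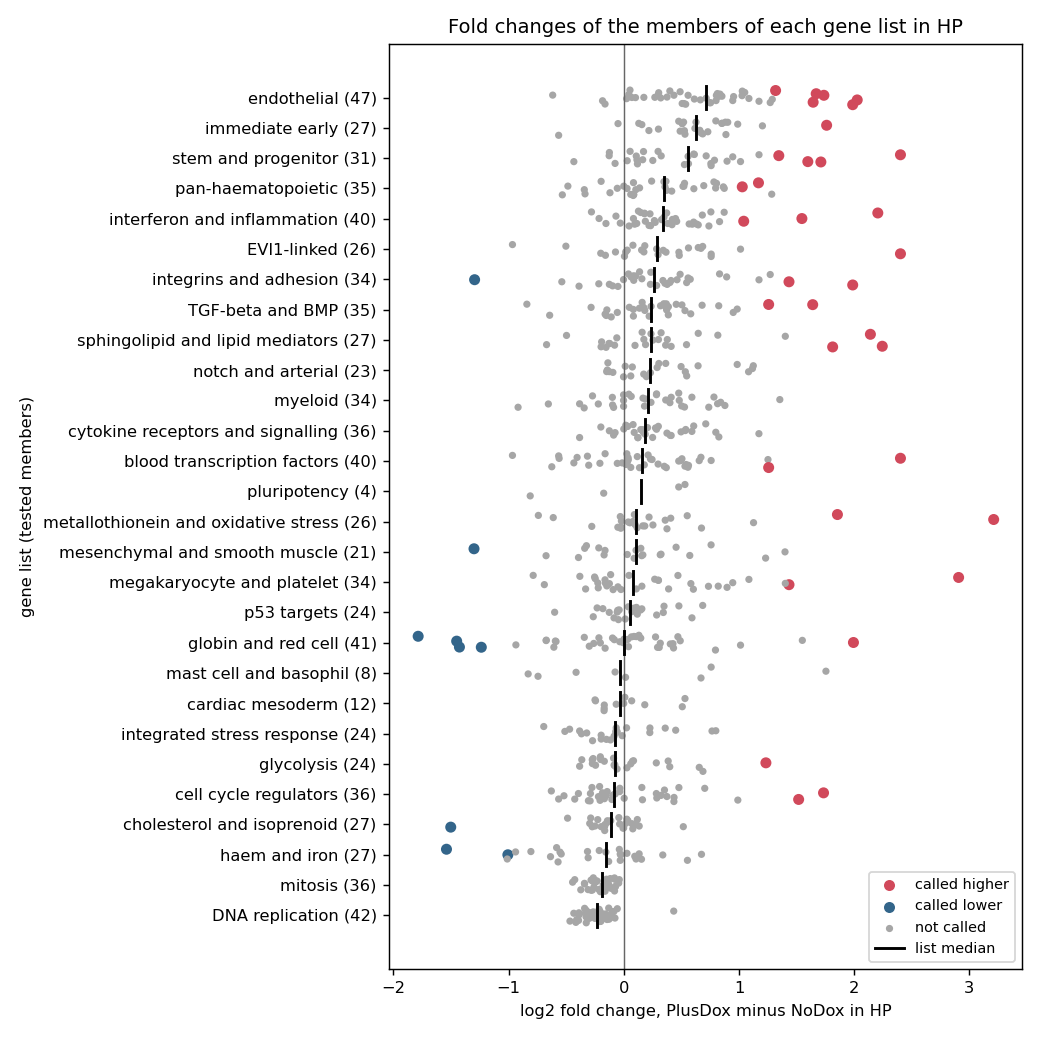
Log2 folds of PlusDox over NoDox in HP for every tested member of 28 gene lists, ordered by the list median (black bar), with red for called higher, blue for called lower and grey for not called. The endothelial, immediate early and stem and progenitor lists have the highest medians (0.72, 0.63 and 0.56) and the mitosis and DNA replication lists the lowest (−0.19 and −0.23), with narrow spreads and no called gene.

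The title of the study names the cell cycle. Of 36 cell cycle regulators 2 rose (beside 0.601% of all genes), 1 that promotes and 1 that restrains the cycle. Ccnd1, cyclin D1 (mm10 chromosome 7, 144929931 to 144939831, protein coding), rose from 1.94 and 2.48 to 7.87 and 11.8 FPKM (1.73 ± 0.31, limma adjusted p = 0.0281). Cdkn1c, the inhibitor p57 (mm10 chromosome 7, 143458339 to 143461059, protein coding), rose from 1.99 and 1.08 to 5.86 and 6.45 FPKM (1.52 ± 0.28, 0.0315). Neither gene passed in a fit that left out 1 HP library. Ccnd3, the most abundant cyclin D gene in HP at 222 and 181 against 219 and 161 FPKM, and its partner Cdk4, at 310 and 219 against 278 and 180, overlapped between the groups.

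None of the replication and mitosis genes was called by limma, and 1 and 0 of them had an unadjusted p below 0.05, beside 9.39% of all genes. Of 42 DNA replication genes 15 were lower in both PlusDox libraries and 1 was higher, with a median of −0.23, and of 36 mitosis genes 15 were lower and 0 higher, with a median of −0.19. Shares lower in both were 35.7% and 41.7%, beside 13.2% of all genes. Medians kept their sign within replicate 1 (−0.20 and −0.15), within replicate 2 (−0.30 and −0.24), and with quantile normalization and median scaling. Pcna, the sliding clamp of DNA polymerase, read 231 and 204 FPKM without and 188 and 162 with doxycycline (−0.31 ± 0.18, limma adjusted p = 0.698). Top2a, the topoisomerase of dividing cells, read 247 and 219 against 213 and 181 (−0.25 ± 0.21, 0.906). Mki67, the proliferation antigen, overlapped at 128 and 110 against 123 and 97.6 FPKM.

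Stress and signalling genes held a few strong rises. Of 26 metallothionein and oxidative stress genes 2 rose, beside 0.601% of all genes. Mt2, a metal-binding metallothionein, went from 3.22 and 4.16 to 22.1 and 79.7 FPKM (3.21 ± 0.52, limma adjusted p = 0.0166), and its PlusDox libraries differed more from each other than those of any other gene in the plot of named genes. Without PlusDox HP replicate 2 its fold was 2.31 (limma adjusted p = 0.107), against 4.11 (0.0117) without PlusDox HP replicate 1. Nqo1, a quinone reductase and classical NRF2 target, rose from 13.1 and 13.5 to 42.2 and 60.9 FPKM (1.86 ± 0.25, 0.0058). Gpx1, a peroxidase, read 468 and 438 against 669 and 657 FPKM without passing (0.55 ± 0.20, 0.317), and Prdx1, Sod1 and Gpx4 overlapped.

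Immediate early genes had a median of 0.63, and 23 of 27 members were higher in both PlusDox libraries (85.2%, beside 20.5% of all genes). The 1 that rose was Nr4a1, a nuclear receptor induced by many signals (mm10 chromosome 15, 101253902 to 101274795, protein coding), which rose from 2.08 and 2.98 to 8.91 and 13.2 FPKM (1.76 ± 0.31, limma adjusted p = 0.0245). Zfp36, an RNA-binding regulator of cytokine transcripts, read 36.7 and 39.6 against 65.9 and 61.9 FPKM (0.73 ± 0.24, 0.257). Jun, a subunit of AP-1, overlapped at 49.7 and 41.3 against 79.2 and 35.2 FPKM.

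Of 40 interferon and inflammation genes 3 rose (beside 0.601% of all genes), at a list median of 0.34. Il1b, the cytokine interleukin 1 beta, went from 0.30 and 2.24 to 5.8 and 12.2 FPKM (2.21 ± 0.39, limma adjusted p = 0.0245), and the NoDox libraries differed severalfold. Its fold was 1.55 without NoDox HP replicate 1 (limma adjusted p = 0.179) and 2.86 without NoDox HP replicate 2 (0.0224). Ltb, lymphotoxin beta (mm10 chromosome 17, 35194507 to 35196305, protein coding), rose from 0.848 and 0.861 to 3.92 and 4.96 FPKM (1.55 ± 0.18, 0.00305). Tnfaip2, a TNF-induced protein, rose from 10.9 and 12.6 to 25.5 and 24.9 FPKM (1.04 ± 0.19, 0.0321). Among 35 TGF-beta and BMP genes Id3 and Bmp4 were the 2 that rose, beside 0.601% of all genes. Bmp4, the ligand (mm10 chromosome 14, 46383525 to 46390669, protein coding), went from 4.91 and 4.65 to 18.2 and 15.9 FPKM (1.64 ± 0.29, limma adjusted p = 0.0245). Id1, another target of BMP signals, read 29.4 and 27.6 against 40.9 and 40.7 (0.51 ± 0.18, 0.32).

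Enzymes of lipid mediators rose from low levels, 3 of 27 listed (beside 0.601% of all genes). Acer2, an alkaline ceramidase that makes sphingosine (mm10 chromosome 4, 86874348 to 86932524, protein coding), went from 0.677 and 0.561 to 6.54 and 5.76 FPKM (2.14 ± 0.22, limma adjusted p = 0.00266). Naaa, a lysosomal amidase, went from 0.507 and 0.171 to 3.30 and 4.07 FPKM (1.81 ± 0.20, 0.00305), and Mogat2, an acyltransferase of fat synthesis, from 0.266 and 0.462 to 4.87 and 6.08 FPKM (2.24 ± 0.29, 0.00504). None of the 3 overlapped between the groups, which held for every called gene. With a pseudocount of 0.1 their folds were 3.12, 3.21 and 3.61. Spns2, a sphingosine phosphate exporter, overlapped at 177 and 137 against 162 and 114.5 FPKM. Ldhb, a lactate dehydrogenase subunit, was the 1 of 24 glycolysis genes that rose, beside 0.601% of all genes. It went from 4.68 and 4.49 to 11.9 and 12.4 FPKM (1.23 ± 0.19, limma adjusted p = 0.0119), while Gapdh, Pkm and Ldha overlapped.

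The largest rises also included genes in none of the lists. Trim47, a ubiquitin ligase, rose from 9.33 and 9.61 to 50.4 and 40.9 FPKM (2.15 ± 0.25, limma adjusted p = 0.00305). Capg, an actin-capping protein, rose from 15.2 and 22.5 to 68.2 and 72.3 FPKM (1.87 ± 0.25, 0.00638), and Plp2, a small membrane protein, from 8.74 and 14.5 to 44.8 and 48.2 (1.95 ± 0.32, 0.0167). Stk26, a kinase of the STE20 family, went from 1.03 and 1.51 to 5.86 and 8.94 FPKM (1.87 ± 0.22, 0.00305), and Tspan8, a tetraspanin, from 3.42 and 4.17 to 17.6 and 11.7 (1.69 ± 0.34, 0.0469). The 2 groups did not overlap in these 5 genes, as the rule for named genes required. Tspan8 was the least stable of them, passing in 5 of 20 alternatives. Plp2, Capg, Stk26 and Trim47 passed in 14, 17, 18 and 19.

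Falls outside the red cell lists included further genes. Mylk3, a myosin light chain kinase, fell from 11.3 and 9.38 to 4.10 and 3.11 FPKM (−1.30 ± 0.20, limma adjusted p = 0.0133), and Efnb1, the ligand ephrin B1, from 5.32 and 5.57 to 2.04 and 1.27 (−1.30 ± 0.21, 0.0171). Bag5, a chaperone cofactor, fell from 12.4 FPKM in both NoDox libraries to 5.08 and 4.45 (−1.21 ± 0.21, 0.0219). Il10ra, the interleukin 10 receptor, fell from 8.61 and 11.3 to 4.19 and 4.58 FPKM (−1.01 ± 0.21, 0.0473). Kcnj5, a potassium channel, Reep1, a shaper of the endoplasmic reticulum, Cpne7, a copine, Nudt4, a polyphosphate hydrolase, and Ddah1, which degrades an inhibitor of nitric oxide synthase, fell by 1.18, 1.15, 1.12, 1.04 and 1.04 on the log2 scale. Il10ra and Nudt4 were the least stable of these calls, passing in 4 and 6 of 20 alternatives.

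Some called features were chosen after their values were seen. Gm5601, a predicted gene, stood at 34.9 and 28.4 FPKM in NoDox HP and was listed at 0 in both PlusDox libraries, and the microRNA gene Mir8114 went from 55.9 and 37.7 to 0.0522 and 0.264 FPKM. Gm34865, a long non-coding RNA gene, was listed at 0 in both NoDox HP libraries and stood at 6.22 and 3.96 with doxycycline. Sprr2a1 and Sprr2a2, whose values were nearly the same in every HP library (0.205 and 0.203 FPKM in NoDox replicate 1), are close copies, so they count as 1 uncertain rise.

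The remaining question was whether the effect in HP matched that in the hemogenic endothelium populations. Of the 80 genes higher in HP, 58 were also called higher in HE2 (72.5% of the HP set and 11.4% of the HE2 set) and 9 in HE1 (11.2% and 7.03%). Background shares were 3.82% called higher in HE2 and 0.961% in HE1. All 9 were higher in all 3 populations, and they were Hprt, Mogat2, Stk26, Nqo1, Ltb, Cdkn1c, Slc16a9, Sh3bgrl2 and Pak1. Called in neither HE population were 22, namely Mecom, Cdh5, Ramp2, Ccnd1, Ptprb, Bmp4, Fgd5, Sox18, Id3, Ldhb, Tnfaip2, Ptpn22, Adam33, Slc6a20a, Ces2g, Gxylt2, Ccdc141, Scarletltr, Mir343, Gm21975, Gm34865 and Gm41421. Of the 31 genes lower in HP, 7 were also called lower in HE2 (22.6% of the HP set, 2.35% of the HE2 set, background 2.24%) and 0 in HE1 (background 0.406%). Mir8114 was called higher in HE2, against the fall in HP. Among the 7 were Alas2, Samd14, Hsd3b1, Mylk3, Kcnj5 and Nudt4. Each population has its own NoDox libraries, but the 3 contrasts come from 1 fit with 1 estimate of the spread for each gene, so their calls are not independent.

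**Figure D4:**
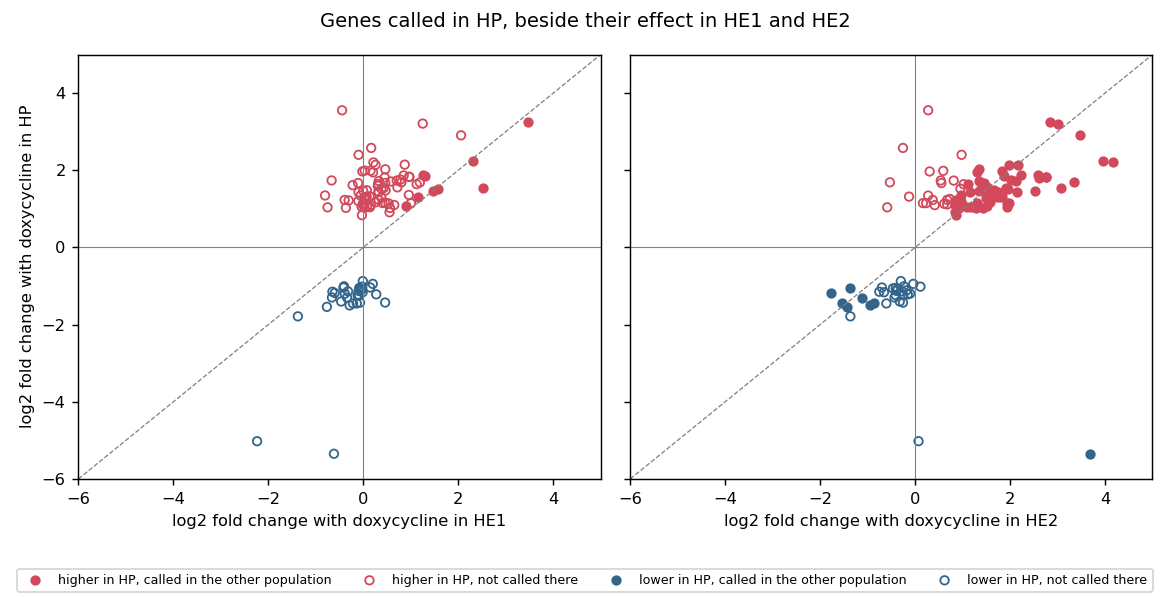
Log2 folds with doxycycline of the 111 genes called in HP (y axis) against their folds in HE1 (left) and HE2 (right), filled where the gene was called there too, with the dashed line at equal folds. In HE2 58 of the 80 red points are filled, and in HE1 9 are.

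Levels in HE are given for 4 of the genes in the plot of the 6 groups. Cdh5 averaged 368 ± 98.6 FPKM in NoDox HE1 and 403 ± 41.5 in PlusDox HE1 (SD, n = 2 here and below), and 207 ± 65.7 and 305 ± 17.6 in HE2. In PlusDox HP it reached 44.8 ± 11.8 FPKM, well below every HE group. Mecom averaged 22.6 ± 8.0 and 20.5 ± 3.44 FPKM in HE1 and 10.0 ± 5.56 and 19.3 ± 1.25 in HE2, against 5.34 ± 0.238 in PlusDox HP. Rhag differed, since it was highest in PlusDox HP (6.34 ± 0.149 FPKM), next in PlusDox HE2 (3.21 ± 0.170) and below 1 in NoDox HP and the other HE groups. Alas2 was highest in NoDox HP (41.5 ± 4.22 FPKM) and lower with than without doxycycline in all 3 populations. An adjusted p below the threshold in HP and not in HE does not show that the effects differ, which needs the test of the difference.

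By limma, 5 genes differed between the effects in HP and HE1 (0.0375% of 13316 genes, with 869 or 6.53% at an unadjusted p below 0.05) and 2 between HP and HE2 (0.015%, with 875 or 6.57%). Ramp2 rose in HP while it read 568 ± 70.3 FPKM without and 359 ± 65.7 with doxycycline in HE1, a difference of effects of 2.40 ± 0.31 (limma adjusted p = 0.048). Rhag rose in HP and stayed at 0.0571 ± 0.0186 and 0.0818 ± 0.0541 FPKM in HE1, a difference of 1.96 ± 0.26 (0.048). The other 3 against HE1 were Gm34865, Mall and Zfp185, and the 2 against HE2 were Gm34865 and Ctsh. Ctsh, the lysosomal protease cathepsin H, read 0 and 0.133 FPKM in NoDox HP and 0.745 and 0.921 in PlusDox HP, while it rose from 0.751 ± 0.706 to 34.2 ± 2.89 in HE2 (difference −3.61 ± 0.44, limma adjusted p = 0.0231). For Mecom the difference was 2.50 ± 0.45 against HE1 (0.102) and 1.42 ± 0.45 against HE2 (0.503), and neither passed. The HE1 count was 20 with no filter on low values, 14 with quantile normalization, 11 with median scaling and 1 with a term for libraries high in Lars2, and the HE2 count was 6, 2, 2 and 0 (1223 at an unadjusted p below 0.05). With no filter, 1 of the 20 was among the 5 genes above, and 0 of the 6 were among the 2. All 5 and 2 calls were lost when the libraries were rescaled without Lars2, Mir6236 and LOC101056014, where 1076 and 1211 genes had an unadjusted p below 0.05. The HE1 count was also 0 without any 1 of the 4 HP libraries, either NoDox HE1 library or PlusDox HE1 replicate 1 (687 to 1178 at an unadjusted p below 0.05), and 3 without PlusDox HE1 replicate 2. The HE2 count was 0 without either NoDox HP library, either NoDox HE1 library or PlusDox HP replicate 1 (575 to 900 at an unadjusted p below 0.05), 1 without PlusDox HP replicate 2, PlusDox HE2 replicate 2 or either NoDox HE2 library, and 5 without PlusDox HE2 replicate 1.

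**Figure D5:**
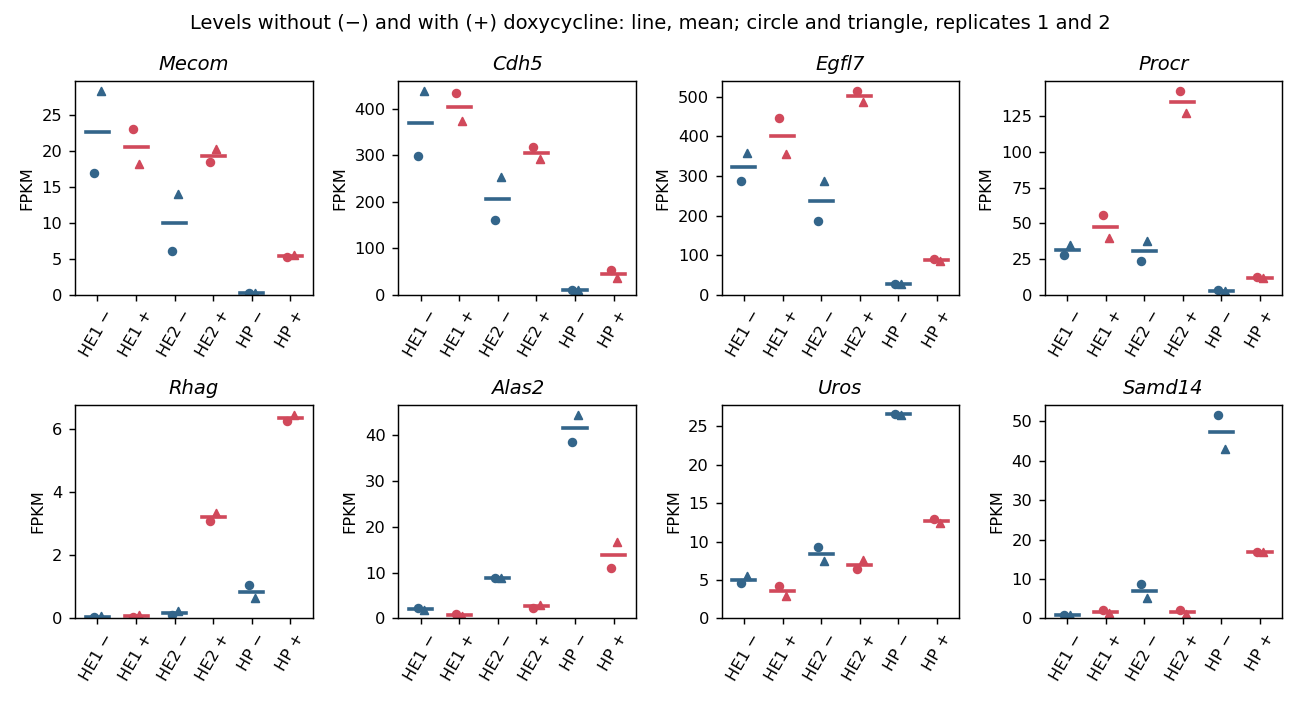
FPKM on linear axes that start at 0 for 8 genes in HE1, HE2 and HP without (−, blue) and with (+, red) doxycycline, with a line at the mean and circles and triangles for replicates 1 and 2. Cdh5, Egfl7, Procr and Mecom are higher in the HE groups than in PlusDox HP, Rhag is highest in PlusDox HP, and Alas2, Uros and Samd14 are highest in NoDox HP.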

How the data were processed

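RNA from sorted cells was sequenced with a stranded total RNA kit as paired-end reads in 1 pool of 12 libraries, per the labels' protocols. The tools listed are HISAT2 2.1.0, StringTie 1.3.3 and Trimmomatic 0.32, and the build is mm10, per the submitters' processing notes. The deposited values are FPKM, a unit read from that tool and from the sums of the values; no annotation or strand setting is given in the sources used here, so overlapping and antisense genes are uncertain. Values of repeated names (2 to 4 a file) were added, leaving 35976 names. Genes with at least 1 FPKM in at least 2 of the 12 libraries (13316) entered log2(FPKM + 1) values and a limma 3.58.1 fit (R 4.3.3) of 6 group means with an intensity trend, 6 residual and 5.83 prior degrees of freedom, two-sided, with Benjamini-Hochberg adjustment and a threshold of 0.05. Samples were grouped by their labels, and the contrasts were PlusDox against NoDox in HP and its difference from the same contrast in HE1 and HE2. On simulated data with 200 of 13316 genes changed in HP, the fit recovered 49% of 100 genes changed 2-fold and 100% of 100 changed 4-fold, with 7 false calls. The changed genes were drawn from those with a mean of at least 5 FPKM, and noise was independent between libraries. These figures therefore do not carry over to genes near 0 or to replicates that deviate together. Depths relative to the median library were read from low values, with 49 of 66 pairs of libraries within 0.1 (log2) of that scale.

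Named genes were Runx1, Mecom and Hprt, the 20 largest rises and up to 20 largest falls (16 met the rule) among called genes with a mean of at least 5 FPKM in 1 group and no overlap, called members of 28 gene lists (838 names, 6 not in the files), up to 4 uncalled members of each list by level, and genes called in a test of a difference. The members and lists were chosen with earlier results of these data known. Gene positions and promoters came from RefSeq tables (32501 of 35976 names matched; promoters of 61 of 80 genes called higher and 20 of 31 called lower), and motifs were searched on both strands of the 250 bases before each start. Alternatives were a pseudocount of 0.1, no filter, 3 rescalings, a term for libraries high in Lars2, a replicate block, the HP libraries alone and leaving out each library. Python 3.11.15 with pandas 2.3.3, numpy 2.4.6 and matplotlib 3.10.9 was used.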

Additional observations from a re-analysis of the deposited data

Results flagged for a closer look

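The effect of doxycycline in HP differed from that in HE1 for 5 genes by a limma test of the difference itself, all with an adjusted p of 0.048. Effects in HP minus effects in HE1 were 2.41 for Gm34865, 2.40 for Ramp2, 1.96 for Rhag, −2.18 for Mall and −2.73 for Zfp185 on the log2(FPKM + 1) scale. Mall, a membrane protein of lipid rafts, was listed at 0 in both NoDox HP libraries and read 0.215 and 0.253 FPKM in PlusDox HP, while it rose from 0.641 and 0.986 to 11.6 and 7.08 FPKM in HE1. Zfp185 read 3.50 and 1.95 against 1.00 and 0.846 FPKM in HP, while it rose from 2.13 and 1.44 to 11.1 and 6.78 FPKM in HE1. The difference from HE2 passed for 2 genes with a limma adjusted p of 0.0231, Ctsh (−3.61) and Gm34865 (2.84). Gm34865 ran from 3.40 to 5.4 FPKM in all 8 HE libraries and in PlusDox HP stood at 6.22 and 3.96, so the NoDox HP libraries, both at 0, were the ones apart.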

How the results depend on the processing

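The HP count of 111 was 169 with median scaling, 175 with a term for libraries high in Lars2, 305 with a replicate block (all 111 among them) and 16 in the HP libraries alone, and ran from 10 to 124 when 1 library was left out. It was 92 (84 higher, 8 lower, 60 shared) with a pseudocount of 0.1 and 94 (60 higher, 34 lower, 46 shared) with no filter. With quantile normalization it was 127 (85 shared), and after rescaling without 3 features 111 (84 shared). Replicate numbers were not taken as pairs, since correlations of replicate differences ran from −0.1 to 0.526 over 15 pairs of groups; 12 were above 0.1, including 0.436 between the HP groups, and the 3 others all involved NoDox HE1. The count of differences from HE1, 5, was 6 with a pseudocount of 0.1, 20 with no filter, 14 with quantile normalization, 11 with median scaling, 0 after rescaling (1076 at an unadjusted p below 0.05 by limma), 1 with the Lars2 term, 54 with the replicate block and 0 to 7 when 1 library was left out. The count of differences from HE2, 2, was 1 with a pseudocount of 0.1, 6 with no filter, 0 after rescaling (1211 at an unadjusted p below 0.05 by limma), 0 with the Lars2 term (1223), 5 with the replicate block and 0 to 5 when 1 library was left out. With no filter, 1 of the 20 calls against HE1 was among the 5, and 0 of the 6 against HE2 were among the 2. With a pseudocount of 0.1, 3 of the 6 calls against HE1 were among the 5. Quantile normalization, median scaling and the replicate block kept all 5 and both of the 2. The cause of these shifts was not tested. Of the 51 named called genes, 51 stayed called with the replicate block, 49 with the Lars2 term, 47 with median scaling, 44 with quantile normalization, 40 after rescaling, 34 with a pseudocount of 0.1, 23 with no filter and 8 in the HP libraries alone. The Runx1 fold ran from −1.95 to 0.0127 when 1 library was left out, reversing without PlusDox HP replicate 2. The globin and red cell median turned to −0.0145 with median scaling and the glycolysis median from −0.08 to 0.04 with quantile normalization. Absolute depth is unknown, so values near 0 carry no counting interval.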

Other observations

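No gene was called by limma in HP in the lists of cytokine receptors and signalling (36 tested, median 0.18, 8 at an unadjusted p below 0.05), mast cells and basophils (8, −0.03, 5), p53 targets (24, 0.05, 3), the integrated stress response (24, −0.08, 2), cardiac mesoderm (12, −0.03, 1) and pluripotency (4, 0.15, 0). Over all genes, 9.39% had an unadjusted p below 0.05 by limma. The 8 cytokine genes were all higher. Of the 5 mast cell genes 2 were higher and 3 lower, and of the 3 p53 targets 2 were higher and 1 lower. The others were higher. Of 34 integrin and adhesion genes Cdh5 and Selp rose and Efnb1 fell (median 0.26), and of 21 mesenchymal and smooth muscle genes Mylk3 fell (median 0.11).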
